A study of Mus musculus with 12 samples.

Results

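Expression of 8 genes of the intermediate filament system was described in cumulus cells of the mouse, which derive from granulosa and enclose the oocyte in its follicle. The genes were the keratins Krt7, Krt8, Krt18 and Krt19, the type III filament genes Vim (vimentin) and Des (desmin), and the linker genes Plec (plectin) and Dsp (desmoplakin). They were looked up by symbol in the annotation of the array, and the probe set of a gene was chosen by the highest mean value over all 12 arrays. Each of the 8 symbols had 1 probe set, so that value left no choice among probe sets, and the genes are 8 of the 19938 with a symbol of their own. The genes were put together with earlier results of these arrays known, so the tests below are no independent support for the genes that moved.

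Cytoplasmic intermediate filaments are rope-like polymers that give cells mechanical strength. Keratin filaments form only from pairs of a type I and a type II chain: Krt8 and Krt7 encode type II chains, and Krt18 and Krt19 encode type I chains of simple, single-layered epithelia. Vimentin is the filament protein of mesenchymal cells and desmin that of muscle, plectin ties filaments to each other, to actin and to integrin-based adhesions, and desmoplakin anchors them to desmosomes. Granulosa cells are described as holding vimentin filaments, and keratins as varying in them with species and follicle stage.

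The arrays compared 3 culture groups, each with 4 arrays, to compare cumulus cells after 8 h with FSH and EGF, or with GDF9, with those of a control. The donors of the complexes were 129SV females, 21 to 26 days of age, that had been primed 44 h earlier with 5 IU of equine chorionic gonadotropin. The oocyte was present in all groups during culture and was removed before RNA was taken. The control group received 293H control medium at 0.125% by volume, the FSH/EGF group the same control with 50 mIU/ml of follicle stimulating hormone and 10 ng/ml of epidermal growth factor, and the GDF9 group 20 ng/ml of growth differentiation factor 9, an oocyte-secreted member of the TGF-beta family. For the GDF9 group the labels name no control medium, and cilostamide, a phosphodiesterase inhibitor, was in the collection medium of all groups at 1 µM. The culture medium of all groups held 11 mM glucose and 100 µM cysteamine, an antioxidant thiol. Each array held RNA pooled from 2 of 8 biological replicates, so errors and p-values measure the spread between pools.

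Values are log2 probe set intensities as normalized by the authors; a difference of 1 is a 2-fold change, and the level of one gene was not set against that of another. Arrays of a group correlated at 0.971 to 0.995 over 35399 rows. The first principal component (59.8% of the variance) separated the FSH/EGF arrays from the others. The labelled cell type was checked on granulosa and cumulus markers, 11 of 12 of which were measured: their mean level was 9.12 to 9.32 on the control arrays, 9.17 to 9.34 with GDF9 and 7.96 to 8.19 with FSH/EGF. Control array 4 stood apart in oocyte transcripts, with a mean of 6.15 over 15 oocyte markers against 5.08 to 5.26 on the other control arrays and 4.94 to 5.30 on all other arrays. In bulk RNA, fewer cells of a type and less RNA per cell cannot be told apart.

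With FSH/EGF, 4 of the 8 genes rose against the control and none fell. These were both partners of the Krt8 and Krt18 pair, Plec and Vim, by 8.11-fold, 6.58-fold, 3.89-fold and 2.50-fold. The other simple-epithelial keratins, Krt7 and Krt19, as well as Des and Dsp, did not pass the threshold. Across all rows of the array 16.5% rose and 12.5% fell in the same comparison (limma, adjusted p under 0.05), and 3.59% rose at least 2-fold, as all 4 of these genes did. The median difference of the 8 genes was 0.61, against -0.06 for all rows. It lies in the gap between the 4 genes that rose (1.32 to 3.02) and the other 4 (-0.35 to -0.10), so it describes no single gene. In the GDF9 group none of the 8 genes passed the threshold against the control.

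**Figure D1:**
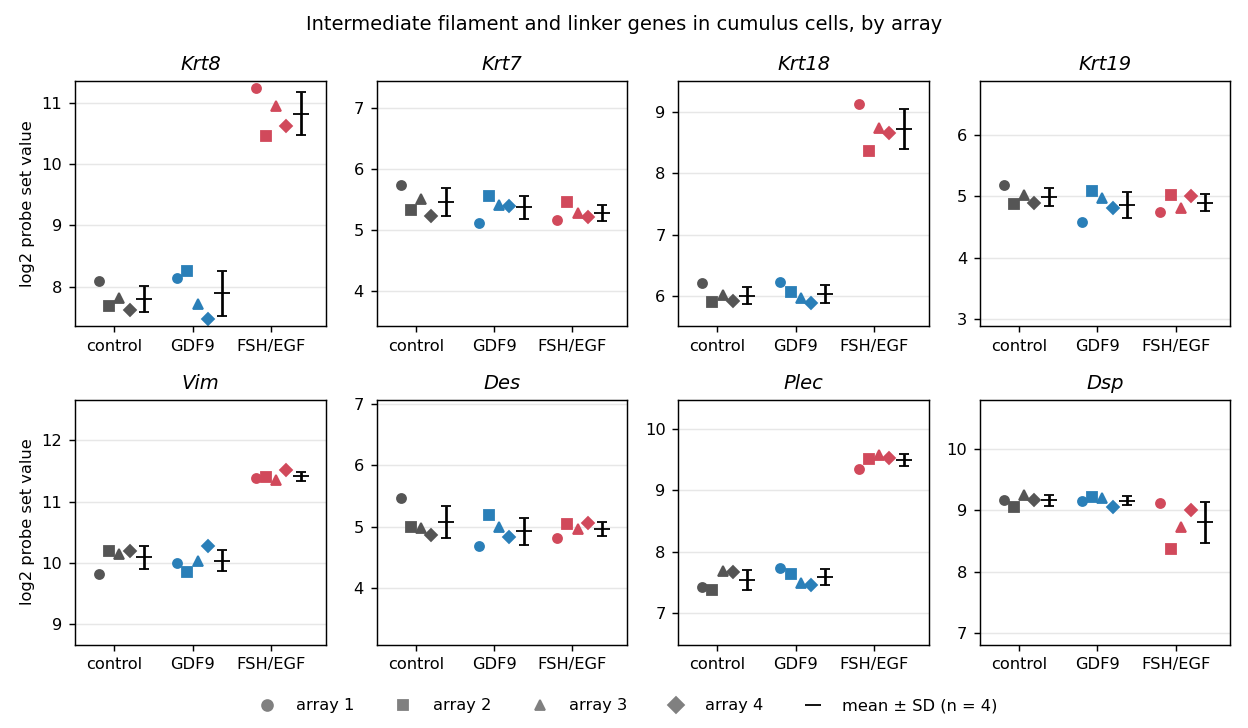
Log2 probe set value (vertical axis) of each of the 8 genes on every array, by culture group (horizontal axis). Symbols mark arrays 1 to 4 of a group, black bars give the mean and SD (n = 4), and every panel spans the same number of log2 units. The FSH/EGF arrays lie above all others for Krt8 (10.46 to 11.25), Krt18, Vim and Plec, and the 3 groups overlap for Krt7, Krt19 and Des.

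Krt8 encodes the type II chain that is usually the first keratin of a simple epithelium. Its levels were 8.10, 7.69, 7.82 and 7.61 on control arrays 1 to 4. With GDF9 they were 8.14, 8.26, 7.72 and 7.47, and with FSH/EGF 11.25, 10.46, 10.95 and 10.63. The lowest FSH/EGF array lay more than 2 log2 units above the highest array of either other group, while the control and GDF9 arrays overlapped. The difference from control was 3.02 ± 0.20 (SE, n = 4 per group; 95% interval 2.59 to 3.45; limma adjusted p = 1.88e-07). Of all 35399 rows, 66 had a higher difference.

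Krt18 encodes the type I partner of keratin 8. Control arrays 1 to 4 read 6.21, 5.89, 6.01 and 5.91, and GDF9 arrays 6.23, 6.07, 5.96 and 5.88. The FSH/EGF arrays read 9.14, 8.36, 8.74 and 8.66. As for Krt8, the FSH/EGF arrays stood clear of both other groups, which overlapped. The difference from control was 2.72 ± 0.14 (SE; 95% interval 2.41 to 3.03; limma adjusted p = 2.33e-08), with 108 of all rows higher.

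Within the FSH/EGF group both partners were highest on array 1 and lowest on array 2. Their ranges over the 4 arrays, 0.79 for Krt8 and 0.77 for Krt18, were wide for this group: only 3.82% and 3.99% of all rows had a wider one. Dsp, with a range of 0.75, had the same highest and lowest arrays, while Vim and Plec did not. Among all rows, 6.83% were highest on array 1 and lowest on array 2 of this group. The mean of the granulosa markers was also highest on array 1 (8.19) and lowest on array 2 (7.96), and its part in this was not tested.

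Krt7, a type II keratin of ductal and other simple epithelia, read 5.74, 5.33, 5.52 and 5.23 on control arrays 1 to 4. With GDF9 it read 5.12, 5.56, 5.41 and 5.39, and with FSH/EGF 5.16, 5.45, 5.28 and 5.22. All 3 groups overlapped. Its difference with FSH/EGF was -0.18 ± 0.12 (SE; 95% interval -0.44 to 0.08; limma adjusted p = 0.289). A rise in probe set value of the size seen in Krt8 lay outside that interval. The mean of Krt7 over the 12 arrays, 5.37, was below the lowest array median, 5.41. At such a level a change in transcript may show as little change in value.

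Krt19, a type I keratin of simple and ductal epithelia, read 5.18, 4.88, 5.02 and 4.89 on the control arrays in order, 4.59, 5.08, 4.97 and 4.82 with GDF9, and 4.75, 5.02, 4.81 and 5.00 with FSH/EGF. No group stood apart. The difference with FSH/EGF was -0.10 ± 0.11 (SE; 95% interval -0.34 to 0.15; limma adjusted p = 0.556). Krt19 and Des had means among the dimmest 40% of rows, below 5.07, where a change in transcript may show as little change in value.

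Both partners of the pair lie side by side on chromosome 15 with no protein-coding gene of the RefSeq table between them, and Krt7 lies in the same keratin cluster with 23 such genes between it and Krt8. The 250 bases upstream of the annotated start are shown for these 3 genes and for Vim, to set the 3 that rose beside the cluster gene that did not pass. Sequences are RefSeq's on GRCm38.p6, 5′ to 3′ in the direction of transcription, and capitals mark matches to the GC box GGGCGG on either strand. Krt8 is at chr15:102004343-102004592 on the minus strand, Krt18 at chr15:102027966-102028215 on the plus strand, Krt7 at chr15:101412153-101412402 on the plus strand and Vim at chr2:13574061-13574310 on the plus strand.
Krt8: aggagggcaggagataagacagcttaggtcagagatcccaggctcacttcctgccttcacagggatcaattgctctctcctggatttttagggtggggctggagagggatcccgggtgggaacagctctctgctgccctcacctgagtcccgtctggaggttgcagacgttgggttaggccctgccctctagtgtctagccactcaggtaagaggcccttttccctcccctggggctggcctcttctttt
Krt18: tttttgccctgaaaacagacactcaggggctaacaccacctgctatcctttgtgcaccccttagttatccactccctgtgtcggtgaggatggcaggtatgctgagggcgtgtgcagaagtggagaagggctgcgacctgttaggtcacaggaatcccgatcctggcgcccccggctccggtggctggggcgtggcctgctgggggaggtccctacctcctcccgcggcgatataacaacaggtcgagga
Krt7: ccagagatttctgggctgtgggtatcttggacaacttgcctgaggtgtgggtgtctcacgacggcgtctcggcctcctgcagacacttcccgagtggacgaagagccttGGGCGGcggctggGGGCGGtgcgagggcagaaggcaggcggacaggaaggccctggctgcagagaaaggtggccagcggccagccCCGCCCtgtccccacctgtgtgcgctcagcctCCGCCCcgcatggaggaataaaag
Vim: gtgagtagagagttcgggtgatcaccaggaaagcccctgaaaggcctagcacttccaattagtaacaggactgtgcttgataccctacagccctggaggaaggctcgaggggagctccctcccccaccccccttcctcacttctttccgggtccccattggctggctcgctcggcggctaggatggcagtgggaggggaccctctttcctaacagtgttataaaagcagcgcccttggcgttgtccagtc

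In these windows 5 motifs were searched on both strands: the AP-1 site TGANTCA, the cAMP response element TGACGTCA, the GC box GGGCGG, the ETS site CCGGAAG and the NR5A site CAAGGTCA. RefSeq's table held windows for 6 of the 8 genes; Krt19 and Plec were not matched. The Krt8, Krt18 and Vim windows held none of the 5 motifs. Krt7 held 4 GC boxes, at positions -141 to -19 from the start, Dsp 4 and Des 2, and no matches overlapped. Of 32851 promoter windows of this length, 32.7% held a GC box, 6.75% the AP-1 site, 1.55% the cAMP response element, 6.91% the ETS site and 1.33% the NR5A site. The GC content was 58.0% for Krt8, 60.4% for Krt18, 58.4% for Vim, 66.0% for Krt7, 67.2% for Des and 72.4% for Dsp, against a median of 52.4% over all windows. The letters are a description of these windows and say nothing about binding.

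Vim, the vimentin gene, was already bright in the control, at 9.82, 10.20, 10.14 and 10.19 on arrays 1 to 4. With GDF9 it read 10.00, 9.85, 10.03 and 10.27, and with FSH/EGF 11.38, 11.41, 11.35 and 11.51. Control array 1 was the lowest of its group, the control and GDF9 arrays overlapped, and every FSH/EGF array lay above both. The difference from control was 1.32 ± 0.10 (SE; 95% interval 1.10 to 1.55; limma adjusted p = 9.45e-07). Unlike the keratin pair, Vim had a narrow range with FSH/EGF, 0.16, and 72.8% of all rows had a wider one.

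Des, the muscle filament gene, read 5.47, 5.00, 4.98 and 4.87 on the control arrays, 4.69, 5.20, 5.00 and 4.82 on the GDF9 arrays and 4.81, 5.04, 4.96 and 5.06 on the FSH/EGF arrays, in order of array. Control array 1 was the highest of the 12, and the groups overlapped. Its difference with FSH/EGF was -0.11 ± 0.14 (SE; 95% interval -0.41 to 0.19; limma adjusted p = 0.574). Of 8 smooth muscle markers 3 were lower and 1 was higher, against 12.5% and 16.5% of all rows, and 4 did not pass. Their median difference was -0.26. Myocd, the gene of the muscle co-activator myocardin, fell by 4.13 and Acta2 (smooth muscle actin) fell by 2.34. These 2 genes carried most of the drop in the list's mean, from 6.66 to 6.88 on control arrays to 5.80 to 5.87 on FSH/EGF arrays; its part in the Des values was not tested.

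Plec encodes the linker that binds keratin and vimentin filaments alike. It read 7.42, 7.38, 7.68 and 7.67 on control arrays 1 to 4, 7.74, 7.64, 7.49 and 7.46 with GDF9, and 9.35, 9.52, 9.59 and 9.53 with FSH/EGF. The FSH/EGF arrays lay above all others, and the other 2 groups overlapped. The difference from control was 1.96 ± 0.09 (SE; 95% interval 1.75 to 2.17; limma adjusted p = 1.19e-08). Array 1, the highest of the FSH/EGF arrays for the keratin pair, was the lowest for Plec.

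Dsp, the desmosomal anchor of keratin filaments, read 9.18, 9.05, 9.25 and 9.17 on the control arrays, 9.16, 9.21, 9.20 and 9.06 with GDF9 and 9.12, 8.37, 8.74 and 9.01 with FSH/EGF, arrays 1 to 4 in each group. FSH/EGF array 1 lay within the range of the other groups, and arrays 2, 3 and 4 lay below every control and GDF9 array. The difference from control, -0.35 ± 0.13 (SE; 95% interval -0.64 to -0.06), did not pass after adjustment (limma adjusted p = 0.0663). The call depends on the setting: without FSH/EGF array 1 the difference was -0.46 (limma adjusted p = 0.0229), without FSH/EGF array 4 -0.42 (limma adjusted p = 0.0497), and after renewed quantile normalization -0.57 (limma adjusted p = 0.00864).

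With GDF9 the 8 genes lay near the control. None passed the threshold, as none of all 35399 rows did (0.0%; limma, smallest adjusted p among the 8 genes 0.971). At an unadjusted p under 0.05, 0 of the 8 genes and 1590 of all rows (4.49%) were found. The differences ran from -0.15 for Des to 0.09 for Krt8. The 95% interval of the Krt8 difference was -0.34 to 0.53 and that of Krt18 -0.28 to 0.34, so that rises of the size seen with FSH/EGF lay outside them. Krt8 ranged over 0.79 here, from 7.47 on array 4 to 8.26 on array 2, as wide as its range with FSH/EGF.

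Set against GDF9, FSH/EGF again showed 4 of the 8 genes higher and 0 lower, where 13.6% of all rows were higher and 8.96% lower. Both comparisons share the FSH/EGF arrays. The differences were 2.93 ± 0.20 for Krt8 (SE; limma adjusted p = 2.76e-07) and 2.69 ± 0.14 for Krt18 (SE; limma adjusted p = 2.74e-08). For Plec the difference was 1.92 ± 0.09 and for Vim 1.37 ± 0.10, with limma adjusted p values of 1.48e-08 and 7.39e-07. Dsp was at -0.35 ± 0.13 (SE; limma adjusted p = 0.0837), and Krt7, Krt19 and Des were between -0.09 and 0.04. For the 4 genes that rose, no FSH/EGF array overlapped a control or GDF9 array; upward separation of this kind was found in 17.0% of all rows against the control and in 14.9% against GDF9.

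**Figure D2:**
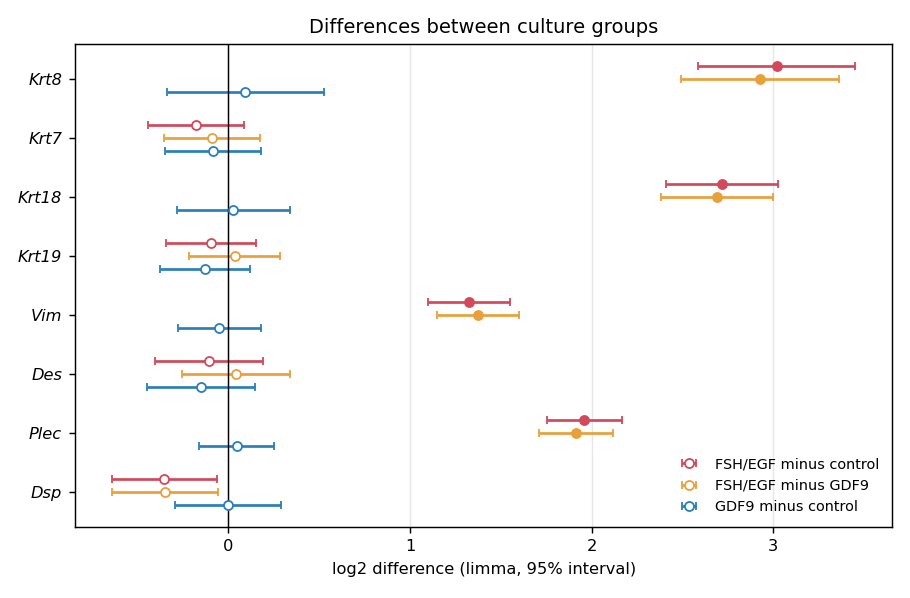
Log2 difference between culture groups (horizontal axis) for each of the 8 genes, with 95% intervals from limma; filled points passed an adjusted p of 0.05 and open points did not. Krt8, Krt18, Vim and Plec are far to the right of 0 in both comparisons with FSH/EGF, and all GDF9 minus control intervals span 0.

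Most of the wider keratin family did not pass the threshold. Of 44 other keratins measured of a list of 47, 3 rose and 7 fell with FSH/EGF, against 16.5% and 12.5% of all rows. Their median difference was -0.10, against -0.06 for all rows. The median level of these keratins was 5.00, below the 5.07 that bounds the dimmest rows, where a change may show poorly. The exception in size was Krt79, a type II keratin known from hair follicles and sebaceous glands. It read 6.43, 6.98, 6.60 and 6.56 on the control arrays, 7.16, 6.92, 6.53 and 6.40 with GDF9 and 10.21, 10.19, 9.81 and 9.92 with FSH/EGF. The FSH/EGF arrays lay above all others, by 3.39 ± 0.17 over the control (SE; limma adjusted p = 1.63e-08), a larger difference than that of Krt8. Like Krt8 and Krt18, Krt79 was highest on FSH/EGF array 1, but unlike them it was not lowest on array 2. Krt23, a type I keratin (0.94), and Krt76, a type II keratin of palate epithelium (0.90), rose less and from levels among the dimmest rows, and Krt13, a type I keratin of stratified mucosa, was the most lowered at -0.52. Without the dimmest rows 21 of these keratins were tested and 6 passed, against 10 of the 44.

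Among 13 other filament genes of types III to VI, 3 rose and 0 fell, against 16.5% and 12.5% of all rows. Their median difference was -0.02. The largest difference was that of Lmna (1.56 ± 0.10, SE), which encodes the A-type lamins of the nuclear envelope. Its levels were 7.76 to 8.01 on control arrays and 9.37 to 9.50 on FSH/EGF arrays, with no overlap. Synm, whose product synemin co-polymerises with vimentin and desmin, rose by 0.91, and Lmnb2, a B-type lamin gene, by 0.65.

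Of 10 other plakins and filament linkers, 2 rose and 2 fell, against 16.5% and 12.5% of all rows. Their median was -0.07, while Plec was at 1.96. Dtna, whose product dystrobrevin binds synemin, was at -0.73, and Macf1, a linker of actin and microtubules, at -0.53. Dst, encoding the plakin dystonin, was at 0.43 and Ppl, encoding periplakin, at 0.31. The call of Dst was lost on leaving out any one of control arrays 1 and 2 and FSH/EGF arrays 3 and 4, and after quantile normalization. The call of Ppl was lost on leaving out control arrays 1 and 4 together.

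Desmosome genes other than Dsp included 5 of 10 measured that rose and 0 that fell, against 16.5% and 12.5% of all rows. Their median was 0.37, while Dsp itself was at -0.35. Dsg2 and Dsc2, the desmosomal cadherins of simple epithelia, rose by 1.33 and 1.03. The mean of Dsc2 over the 12 arrays, 5.01, was among the dimmest rows. Jup, encoding plakoglobin, which links those cadherins to desmoplakin, rose by 0.69, as did Perp (0.69), a membrane protein of desmosomes. Dsg2 read 5.31 to 5.43 on control arrays and 7.10, 6.46, 6.83 and 6.47 on FSH/EGF arrays 1 to 4; Jup read 8.78, 8.02, 8.48 and 8.40 on the same arrays. Both were highest on array 1 and lowest on array 2, as were Krt8, Krt18 and Dsp, but also Macf1, which fell. Dsc2 and Perp did not have this order, which 6.83% of all rows had.

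Hemidesmosomes tie keratin filaments to the basement membrane through plectin and the integrin alpha-6 beta-4. Of their 4 genes, 2 rose and 1 fell, against 16.5% and 12.5% of all rows. Itga6, the alpha-6 chain, rose by 2.10 ± 0.18 (SE), from 5.36 to 5.92 on control arrays to 7.52 to 8.12 on FSH/EGF arrays, and the tetraspanin gene Cd151, whose product binds that integrin, rose by 1.63. Itgb4, the beta-4 chain, was at -0.37, a call lost without FSH/EGF array 1, without FSH/EGF array 3 and without control arrays 1 and 4 together.

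Of 8 chaperones and 14-3-3 genes whose products bind filament proteins, 3 rose and 0 fell, against 16.5% and 12.5% of all rows. Their median was 0.04. Hspb8, a small heat shock protein gene, rose by 2.56 ± 0.10 (SE), and Ywhaz, a 14-3-3 gene, by 1.61. Ywhae, another 14-3-3 gene, was at 0.24, and 10 of 25 alternative settings took its call away. Against the control, GDF9 gave 0 calls in all 6 lists (limma). The lists were drawn up with earlier results of these arrays known.

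**Figure D3:**
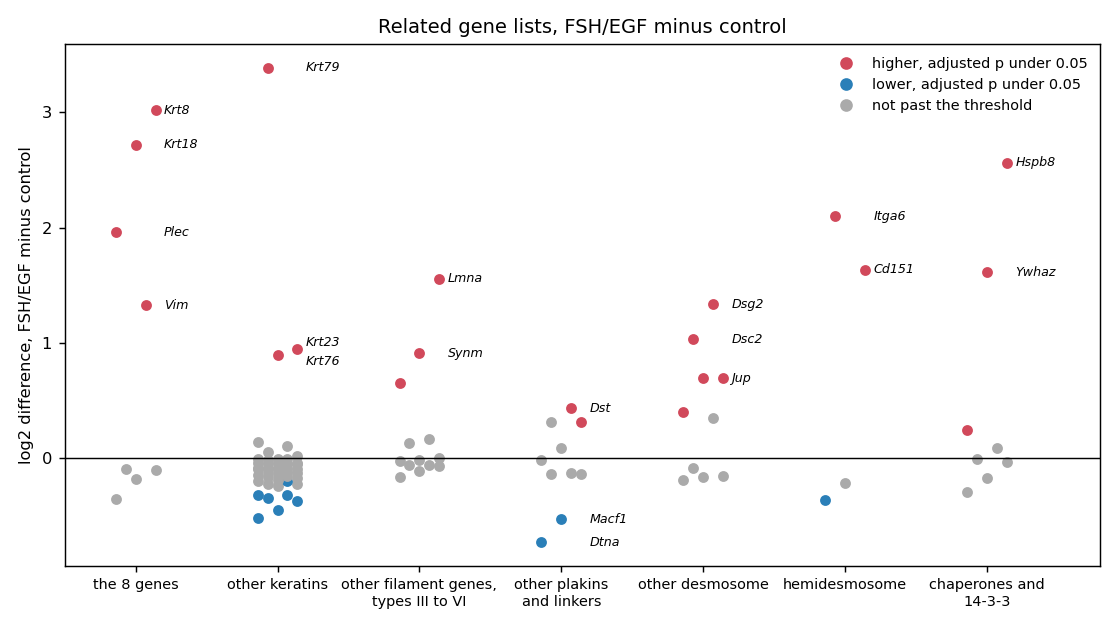
Log2 difference of FSH/EGF minus control (vertical axis) for the 8 genes and for 6 lists of related genes (horizontal axis), 1 point per gene. Red and blue points passed an adjusted p of 0.05 upward and downward, and grey points did not pass. Most other keratins lie near 0 with Krt79 far above them at 3.39. Of the 10 other desmosome points 5 are red and 5 grey, and Dsp is grey at -0.35.

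Markers of other cells of the ovary were read beside these results, since Krt8, Krt18 and Krt19 are also markers of the ovarian surface epithelium and Vim of stroma and leukocytes. Of 9 other surface epithelium markers, 1 rose with FSH/EGF (Epcam by 0.36) and 3 fell, against 16.5% and 12.5% of all rows. The mean of that list was 4.94 to 5.15 on control arrays and 4.87 to 4.93 on FSH/EGF arrays, and its part in the Krt8 and Krt18 values was not tested. Of 8 leukocyte markers 2 rose and 0 fell, against 16.5% and 12.5% of all rows. Their mean was 4.65 to 4.90 on control and 4.76 to 4.82 on FSH/EGF arrays. The median level of these markers was 4.69, below the 5.07 that bounds the dimmest rows, where a change may show poorly. The median level of the surface epithelium markers was 5.17, near that limit, with the lowest marker at 3.86. Of 8 theca and stroma markers 1 rose and 2 fell, against the same shares of all rows. Their mean was 5.51 to 5.68 on control and 5.47 to 5.55 on FSH/EGF arrays.

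Of 8 endothelial markers 2 were higher with FSH/EGF and 1 was lower, against 16.5% and 12.5% of all rows, and 5 did not pass. Cdh5 rose by 3.18 and Tek by 0.29, and the mean of Tek over the arrays, 4.71, was among the dimmest rows. The median difference of the list was -0.03, and its median level was 5.02, also below 5.07. The mean of the list was 5.39 to 5.46 on FSH/EGF arrays and 5.02 to 5.14 on control arrays, a gap that Cdh5 carries; its part in the rise of Vim was not tested. Granulosa markers included 8 of 11 that fell and 0 that rose, against 12.5% and 16.5% of all rows. Fshr, the FSH receptor gene, fell by 3.14. Of the 15 oocyte markers 0 rose and 2 fell, against 16.5% and 12.5% of all rows. On control array 4, the array with more oocyte transcript, Krt8 was at 7.61 and Krt18 at 5.91, at or near the low end of their group. Leaving out that array and FSH/EGF array 3 together kept the calls of all 4 genes that rose.

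The genes on either side of the pair were also read, a set chosen after values had been seen. Of 16 measured protein-coding neighbours, 8 on each side, 7 were higher and 2 lower with FSH/EGF, against 16.5% and 12.5% of all rows. Their median difference was -0.01, with a range from -0.45 to 3.39. On the Krt8 side all 8 are keratin genes, already counted among the other keratins above. Of these, Krt79 and Krt76 rose, Krt78 was at -0.20, a call lost under 16 of 25 alternatives, and the others did not pass. On the Krt18 side the highest differences were those of Igfbp6, a binding protein gene for insulin-like growth factors (2.65), and Tns2, encoding the focal adhesion protein tensin-2 (1.56). Eif4b (0.72), Spryd3 (0.84) and Rarg (0.52) were also higher and Csad (-0.45) lower; the Rarg call was lost under quantile normalization, without control array 3 and without FSH/EGF array 2. Both sides held genes that passed and genes that did not.

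**Figure D4:**
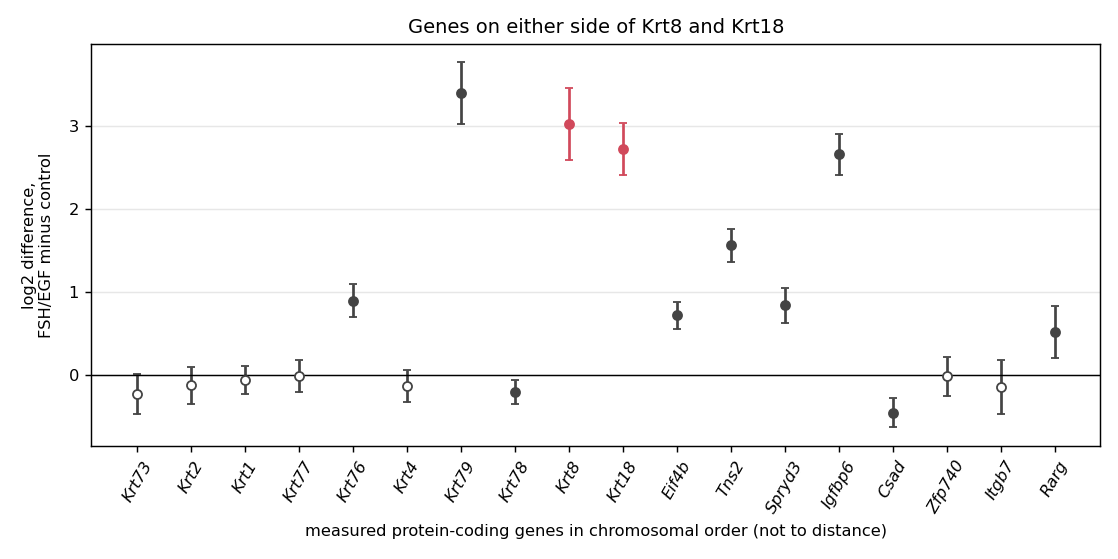
Log2 difference of FSH/EGF minus control (vertical axis, 95% interval) for Krt8 and Krt18 (red) and for 8 measured protein-coding genes on each side (dark), in chromosomal order but not to distance. Filled points passed an adjusted p of 0.05; Krt79 and Igfbp6 are the neighbours nearest in size to the pair.

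The pattern of each gene that rose was compared with that of 18619 named genes by the root mean square difference over the 12 arrays, in log2 units and after centring each gene on its own mean. The gene most like Krt8 was Krt18, at 0.19, followed by Ddit4 (0.21), a stress-induced regulator of mTOR signalling, and Tnc (0.23), the matrix protein gene of tenascin C. Krt18 was nearest to Zfp791 (0.16), Ddit4 (0.17) and Hal (0.18), with Krt8 at rank 5. Vim was nearest to Diaph1 (0.12), a formin gene, Mir99a (0.12) and Napepld (0.12), and Plec to Trps1 (0.10), Prkar1b (0.11) and Dclk1 (0.11). Likeness over these arrays is mostly the contrast of FSH/EGF with the other groups, so the lists describe a shared size of difference.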

How the data were processed

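The authors deposited 1 table of log2 values, 35399 probe sets by 12 arrays; per the submitters' processing notes, GCOS, Partek and RMA were used, without versions or roles, and the genome build is not given in the sources used here. Gene names came from the platform annotation, which gave 1 symbol for 21789 probe sets. Differences were fitted with limma 3.58.1 in R 4.3.3 over all 12 arrays with 1 mean per group, and p-values were adjusted (Benjamini-Hochberg) over all rows; the script was tested on simulated data. The 8 members and all gene lists were chosen with earlier results of these data known. From each related list up to 4 genes with the largest FSH/EGF minus control difference past the threshold were named, and for each member past it the 3 nearest genes. A total of 25 alternatives changed 1 choice at a time. They concerned normalization, dim rows, rows tested, the mean over probe sets, variance moderation, array weights, groups in the fit, replicate number, and arrays left out. The number of arrays limits the precision. Cyp19a1 is not analysed here.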

Additional observations from a re-analysis of the deposited data

Results flagged for a closer look

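Among 24 sets of 4 arrays, each a gene of the 8 in 1 culture group, 1 held an array far from the rest: Vim on control array 1 was at 9.82, while the other 3 control arrays lay between 10.14 and 10.20. Chance alone gives about 1 such set in 20. Control array 1 also had the lowest array weight (0.27). Without it the Vim difference between FSH/EGF and control kept its direction and its call.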

How the results depend on the processing

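Over 25 alternatives the rises of Krt8 (2.88 to 3.14), Krt18 (2.58 to 2.84), Plec (1.73 to 2.04) and Vim (1.24 to 1.40) over the control kept their calls. Not all of these alternatives could move those differences. The mean over probe sets left every member as it was, since each had 1 probe set. Leaving out a GDF9 array changed only the estimate of the spread. The count of members lower than the control went from 0 to 1, always Dsp, without the dimmest rows, after renewed quantile normalization and with only rows of 1 symbol, and ranged from 0 to 1 when single arrays were left out; against GDF9 it went from 0 to 1 under quantile normalization and with rows of 1 symbol, and ranged from 0 to 1 with single arrays left out. The cause was not tested. No called difference changed sign. Of GDF9 minus control differences near 0, Krt18 turned to -0.0032 without control array 4 and FSH/EGF array 3. Dsp turned to 0.0334 with equal array medians, 0.0101 without control arrays 1 and 4 and 0.00090 without control array 4 and FSH/EGF array 3, and Plec to -0.0197 with array weights and -0.0158 under quantile normalization. With array weights, Krt19 in FSH/EGF minus GDF9 turned to -0.0115. Leaving out single arrays gave, for GDF9 minus control, -0.16 to 0.0085 for Krt7, -0.0278 to 0.24 for Krt8, -0.0374 to 0.0945 for Krt18, -0.14 to 0.0110 for Vim, -0.0408 to 0.0303 for Dsp and -0.0063 to 0.0929 for Plec. The same gave -0.18 to 0.0196 for Des in FSH/EGF minus control, and -0.0589 to 0.11 for Krt19 and -0.0382 to 0.13 for Des in FSH/EGF minus GDF9. Krt19 and Des could not be tested without the dimmest rows.

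Against the control, FSH/EGF gave 5856 rows higher and 4413 lower; equal array medians gave 6637 and 2588. The replicate numbers were not taken to pair the arrays: deviations of same-numbered arrays correlated at -0.39 to 0.22, with 7 of 12 pairs over the limit of 0.1 that every pair had to pass, and 3 of 12 arrays correlated best with their own number. With the replicate block, 4 members stayed higher with FSH/EGF than the control and 0 lower, and rows came to 5601 higher and 3999 lower.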
